A study of Mus musculus with 2 samples.

Results

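The CC chemokines are small secreted proteins with adjacent cysteines near their amino terminus, which draw leukocytes into tissue by binding G protein-coupled receptors (CCR) on them. The genes described are Ccl2, Ccl3, Ccl4, Ccl6, Ccl7, Ccl9, Ccl11, Ccl17, Ccl22 and Ccl24, chosen by symbol, and all 10 were found among the 32285 genes of the deposited tables. In fat tissue these genes are best known for the recruitment of monocytes in obesity and of eosinophils in lean animals.

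The cells came from perigonadal white adipose tissue (gWAT) of male Cyp1a1Cre x R26LSL-eYFP mice. For 12 weeks the mice of the LFD group ate the low-fat formula D12450J, with 10% fat, and those of the HFD group the high-fat formula D12492, with 60% fat. Every mouse of both groups carried the fate reporter and was injected with FICZ, a ligand of the aryl hydrocarbon receptor (AHR), at 10 mg/kg, and tissue was taken 5 days later. Cre was driven by the Cyp1a1 promoter, so an eYFP+ cell, or a cell it descended from, had activated this AHR target gene at some time. The sort set which cells could be seen. Live eYFP+ cells of the stromovascular fraction, which excludes mature adipocytes, were sorted for 1 single-cell library per diet, each made from pooled mice per the study's methods. Uninjected mice and eYFP- cells were not analysed here.

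The LFD library held 11281 cell barcodes and the HFD library 9631, of which 10216 and 8537 passed the cell filter with a median of 10636 and 13231 unique molecular identifiers (UMIs). Cell types were assigned cell by cell from marker genes that include no CC chemokine or CC chemokine receptor, and 9630 LFD and 7981 HFD cells received a type. The libraries shared 27 cell names, 20 of them on typed cells. Adipocyte markers summed to 0.309 and 0.268 CPM (counts of a gene per 1000000 UMIs) in the largest class of stromal cells.

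Stromal cells were the most numerous and nearly all carried a UMI of Wt1, a transcription factor of visceral mesothelium and visceral fat stroma. They were divided into keratin-low stromal cells (4402 LFD and 1674 HFD cells), keratin-high mesothelial-like cells (880 and 1363), cycling stromal cells (943 and 601) and fibroblastic progenitor-like cells (314 and 697). Wt1 was detected in 90.5% of LFD and 92.2% of HFD keratin-low stromal cells, against 3.97% and 3.07% of endothelial-like cells. These classes are ranges of marker number and not sharp types. Of 6539 LFD stromal cells, 728 lay at 4 or 5 keratin markers and 618 at 5 or 6 fibroblastic markers, next to the dividing value, and of 4335 HFD stromal cells 844 and 870 did so. Keratin-low stromal cells had a median of 3 fibroblastic markers on both diets, with 1 keratin marker on LFD and 2 on HFD. Cycling stromal cells had a median of 2 keratin markers on LFD and 4 on HFD, and fibroblastic progenitor-like cells 7 and 8 fibroblastic and 0 keratin markers.

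The other cells were endothelial-like (655 LFD and 618 HFD cells), macrophage-like (516 and 481), B-like (1119 and 811), plasma cell-like (387 and 1414) and ILC2-like (115 and 112), the last named for group 2 innate lymphoid cells. Smaller classes were neutrophil-like (150 and 47), dendritic cell-like (64 and 74), T-like (74 and 73) and NK-like cells (6 and 7). Their depth differed widely. The median ran from 1234.5 UMIs on LFD and 1016 on HFD in neutrophil-like cells, over 4430 and 6167 in macrophage-like cells, to 16912 and 21261 in cycling stromal cells.

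In the mouse genome most of these genes lie in a cluster on chromosome 11. By GRCm38 annotation, Ccl2 (82035571-82037453), Ccl7 (82045712-82047525) and Ccl11 (82057823-82062955) lie side by side on the plus strand of chromosome 11. Ccl9 (83572919-83578636), Ccl6 (83587882-83593087) and Ccl3 (83647844-83649355) follow on the minus strand and Ccl4 (83662584-83664683) on the plus strand of the same chromosome. Ccl22 (94745590-94751699) and Ccl17 (94810453-94812036) are neighbours on the plus strand of chromosome 8, and Ccl24 (135569937-135573049) lies on the minus strand of chromosome 5. All 10 are protein-coding. Ccl2 overlaps the gene model Gm17268 and Ccl6 overlaps E230016K23Rik, so reads in these overlaps can be shared.

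Of these genes, 2 pairs are shown by the sequence before their start, since Ccl6 and Ccl9 were both led by macrophage-like cells and Ccl17 and Ccl22 were both highest in dendritic cell-like cells on LFD. The sequences are RefSeq promoter windows of GRCm38.p6, printed 5′ to 3′ on the strand of the gene. Capitals mark the letters of searched motifs, named in the next paragraph. RefSeq windows were matched for 5 of the 10 genes.
Ccl6: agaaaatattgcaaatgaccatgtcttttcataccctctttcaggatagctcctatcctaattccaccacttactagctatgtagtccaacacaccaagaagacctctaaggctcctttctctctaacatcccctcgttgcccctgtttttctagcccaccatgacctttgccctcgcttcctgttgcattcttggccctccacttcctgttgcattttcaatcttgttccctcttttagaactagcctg
Ccl9: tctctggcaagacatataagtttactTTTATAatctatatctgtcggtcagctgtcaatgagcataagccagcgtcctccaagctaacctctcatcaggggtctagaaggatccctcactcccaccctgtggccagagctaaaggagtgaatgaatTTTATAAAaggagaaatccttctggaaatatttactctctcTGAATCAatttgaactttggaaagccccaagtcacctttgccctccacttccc
Ccl17: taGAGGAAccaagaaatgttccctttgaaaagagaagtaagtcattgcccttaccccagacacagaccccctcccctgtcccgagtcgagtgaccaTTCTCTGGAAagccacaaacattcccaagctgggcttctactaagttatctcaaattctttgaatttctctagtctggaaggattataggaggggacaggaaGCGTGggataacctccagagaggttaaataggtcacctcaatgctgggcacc
Ccl22: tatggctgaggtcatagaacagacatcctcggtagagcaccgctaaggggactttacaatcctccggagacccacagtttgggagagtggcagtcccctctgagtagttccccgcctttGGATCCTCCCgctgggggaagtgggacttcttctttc

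These windows are chr11:83593088-83593337 (minus strand) for Ccl6, chr11:83578637-83578886 (minus strand) for Ccl9, chr8:94810203-94810452 (plus strand) for Ccl17 and chr8:94745434-94745589 (plus strand) for Ccl22. The Ccl22 window was printed for 156 bases only, up to the gene start of the annotation. Letters were searched on both strands in the 250 bases before each RefSeq start. Ccl17 held TTCNNNNGAA, the core bound by STAT6 downstream of interleukin 4 and interleukin 13, at 154 bases before its start, letters that 5.85% of 32851 mouse promoters held. It also held GCGTG, the core of the AHR response element, at 52 bases (28.2% of promoters) and GAGGAA, a PU.1 core, at 248 bases (23.2% of promoters). Ccl22 held GGGANNNNCC, an NF-kB motif, on the opposite strand at 131 bases, which 17.6% of promoters did.

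Ccl9 held TATAAA on either strand at 224, 94 and 92 bases, the last 2 overlapping, and TGANTCA, an AP-1 motif, at 53 bases, letters held by 12.4% and 6.75% of promoters. In the Ccl6 window none of these letters, nor TTGCNNAA of C/EBP factors (9.56% of promoters), was found. A match describes letters only, and no binding was measured.

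Levels are given as CPM, the counts of a gene per 1000000 of all UMIs summed over the cells of a type in a library. Because the chemistry counts 1 tag at the 3′ end of each transcript, gene length does not enter, and levels may be set side by side between genes. Ranges in parentheses after a level or a ratio are exact 95% intervals that cover counting error only. Differences between mice, sorts and libraries are not in them, and with 1 library per diet no test between diets was possible.

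Most of the 10 genes had the same main source on both diets, Ccl22 being an exception. Ccl2 and Ccl7 were stromal, with 98.7% of the typed Ccl2 UMIs on LFD and 97.4% on HFD in the 4 stromal classes, and 98.1% and 95.7% of those of Ccl7. Ccl11 was stromal as well (95.09% and 94.96%). Ccl6 and Ccl9 belonged to macrophage-like cells, which held 92.5% and 95.7% of Ccl6 UMIs and 85.7% and 91.5% of Ccl9 UMIs.

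Ccl3 and Ccl4 came mostly from macrophage-like cells. Of Ccl3 UMIs these held 57.0% and 63.8% and neutrophil-like cells 25.3% and 24.8%. Of Ccl4 UMIs macrophage-like cells held 59.2% and 58.5%, neutrophil-like cells 14.7% and 12.2%, the stromal classes 11.5% and 14.9% and dendritic cell-like cells 9.96% and 10.6%. Ccl24 was divided between stromal (69.4% and 65.5%) and macrophage-like cells (27.7% and 31.9%). Dendritic cell-like cells held 62.8% and 49.2% of Ccl17 UMIs and 42.3% and 12.0% of Ccl22 UMIs, and B-like cells 24.2% and 28.1% of Ccl17 and 39.7% and 75.3% of Ccl22. These shares depend on how many cells of each type were sorted, and fewer cells of a type lower its share whatever the level per cell.

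**Figure D1:**
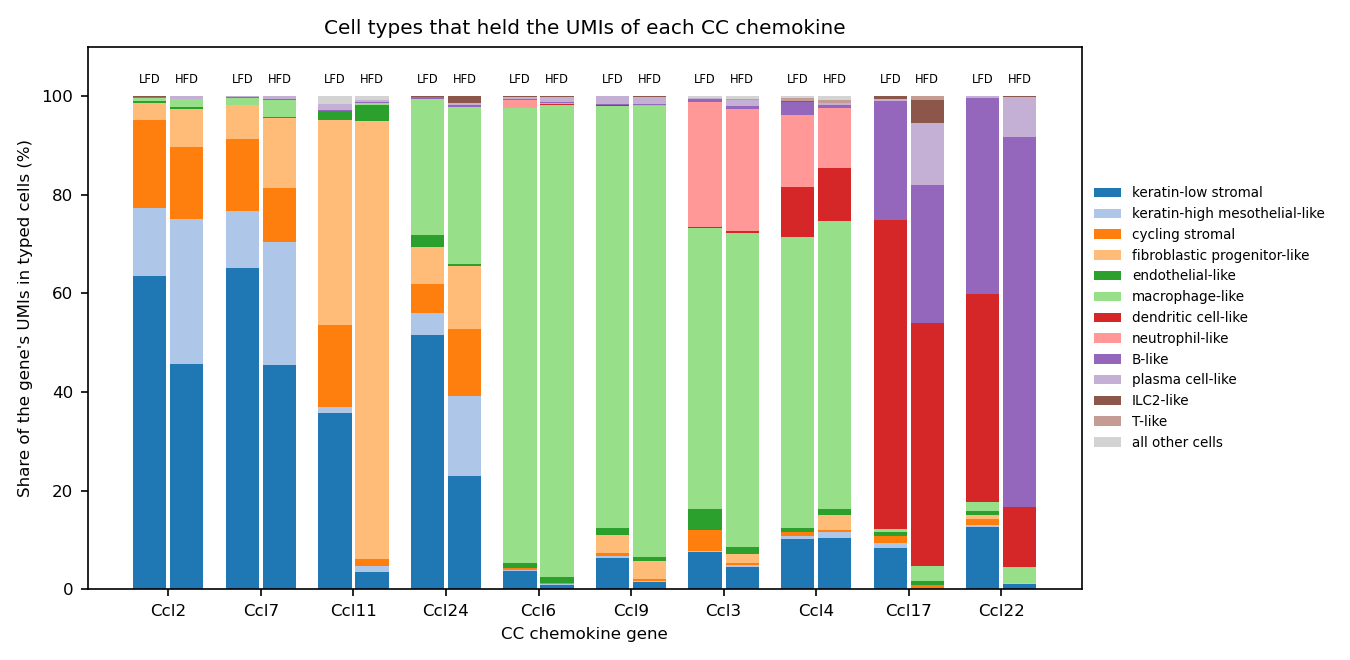
Share of each gene's UMIs in typed cells (y axis, percent) by cell type (colours), with the LFD and HFD library side by side for each of the 10 genes (x axis). Stromal colours fill the bars of Ccl2, Ccl7 and Ccl11, macrophage-like cells those of Ccl6 and Ccl9, and the B-like part of the Ccl22 bar is 39.7% on LFD and 75.3% on HFD.

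All 10 genes together made up 5859 CPM of macrophage-like RNA on LFD and 5805 CPM on HFD, the highest sum in a class with at least 100 cells on both diets. Stromal sums lay between 1359 and 1683 CPM on LFD and between 1397 and 2319 CPM on HFD. The other 4 classes of that size were lower, with endothelial-like cells at 128 and 244 CPM, B-like cells at 95.7 and 147 CPM, ILC2-like cells at 54.7 and 93.9 CPM and plasma cell-like cells at 56.6 and 42.6 CPM.

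**Figure D2:**
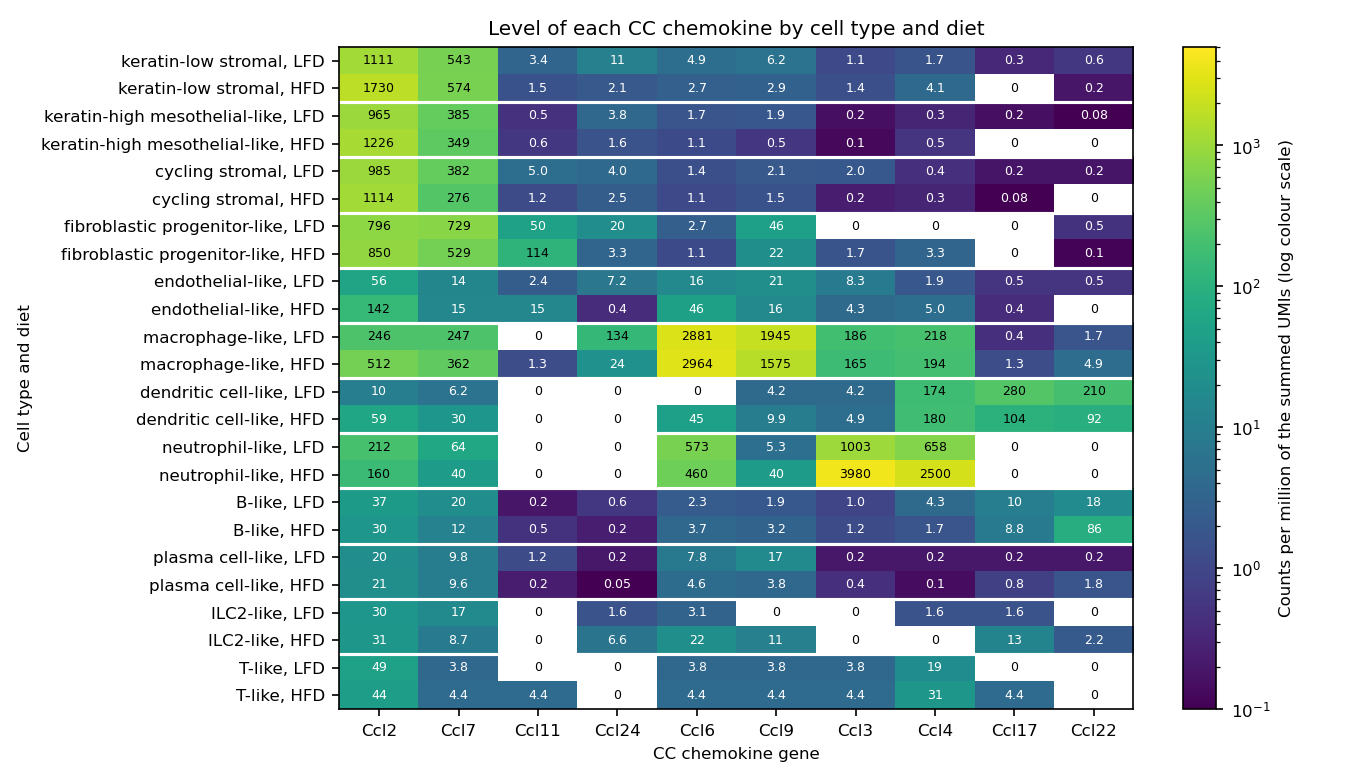
Level of each gene (columns) in each cell type and diet (rows) in CPM, written in the cell and coloured on a log scale, white where no UMI was counted. Ccl2 and Ccl7 fill the stromal rows, Ccl6 and Ccl9 the macrophage-like rows, and Ccl3 reaches 3980.5 CPM in HFD neutrophil-like cells.

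RNA released from broken cells can enter any droplet, so each level was set beside an estimate of it. A first estimate took, for each class, the median of the free RNA shares given by the markers of all other lineages. Single lineages gave shares of up to 1770.6%, while the medians ran from 2.04% to 41.5%. Whether this estimate is too high was not tested. A second and lower one, chosen after the data had been seen, traced collagens and Dcn of stromal cells, C1q genes of macrophage-like cells and S100a8 and S100a9 of neutrophil-like cells. The second estimate holds only these sources and skips a source in its own classes. For a gene made mainly by other cells, or by another stromal class, it is therefore very low and passed at few counts. Of 57 gene and cell type pairs with at least 20 counts, 53 were above the second estimate in at least 1 library and 35 above the first. Among the lymphoid classes, Ccl2 at 20.1 to 36.7 CPM and Ccl7 at 8.74 to 20.2 CPM in B-like, plasma cell-like and ILC2-like cells give the scale of low values in cells that are not expected to make these genes, where stromal lineage markers summed to 796 and 475 CPM in B-like cells.

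HFD to LFD ratios were taken in the 9 types with at least 100 cells on both diets, and a ratio of 2 or more in either direction was counted as a call. Of the 57 pairs, 10 were at least 2-fold higher on HFD and 15 at least 2-fold lower. Of all genes compared, 2.32% to 8.05% per type were called higher and 1.80% to 5.42% lower. In keratin-low stromal cells 9 genes could be compared, of which 1 was called higher and 4 lower. There 7.73% of all genes compared were called, 2.32% higher and 5.42% lower. Against medians near 0 for all genes (log2 ratio 0.07 in keratin-low stromal cells), the median of the chemokines was -0.86 in that class.

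In the other stromal classes the calls were mostly lower. Keratin-high mesothelial-like cells had 0 higher and 2 lower calls among 6 genes (5.06% of all genes called, 3.26% higher and 1.80% lower). Cycling stromal cells had 0 higher and 2 lower among 7 (5.81%, 2.78% higher and 3.04% lower). Fibroblastic progenitor-like cells had 2 higher and 3 lower among 7 (7.47%, 5.22% higher and 2.25% lower), where the lower Ccl6 was above neither free RNA estimate. Over all types, 10 of the 15 lower and 7 of the 10 higher calls were above the first estimate in at least 1 library, and 14 and 10 above the second. Endothelial-like cells had 4 higher and 1 lower among 8 genes (8.56%, 5.83% higher and 2.73% lower). Of the 4 higher, Ccl2, Ccl4 and Ccl6 were above the second free RNA estimate in both libraries and above the first in neither, and the markers of mural cells were higher on HFD in this class as well (their values are given with Ccl11).

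Macrophage-like cells had 1 higher and 1 lower call among 7 genes (5.79%), B-like cells 1 and 1 among 7 (4.98%), plasma cell-like cells 1 and 1 among 5 (5.67%), and ILC2-like cells none for the 1 gene compared (12.2%). The median log2 ratio of the chemokines was -0.37 in keratin-high mesothelial-like, -0.47 in cycling stromal and -0.76 in fibroblastic progenitor-like cells, against 0.13, 0.12 and 0.08 for all genes. In endothelial-like cells it was 0.70 against 0.15, and in macrophage-like cells -0.17 against 0.08. The members are few and share cells and a genomic cluster, so these medians describe them and carry no test.

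**Figure D3:**
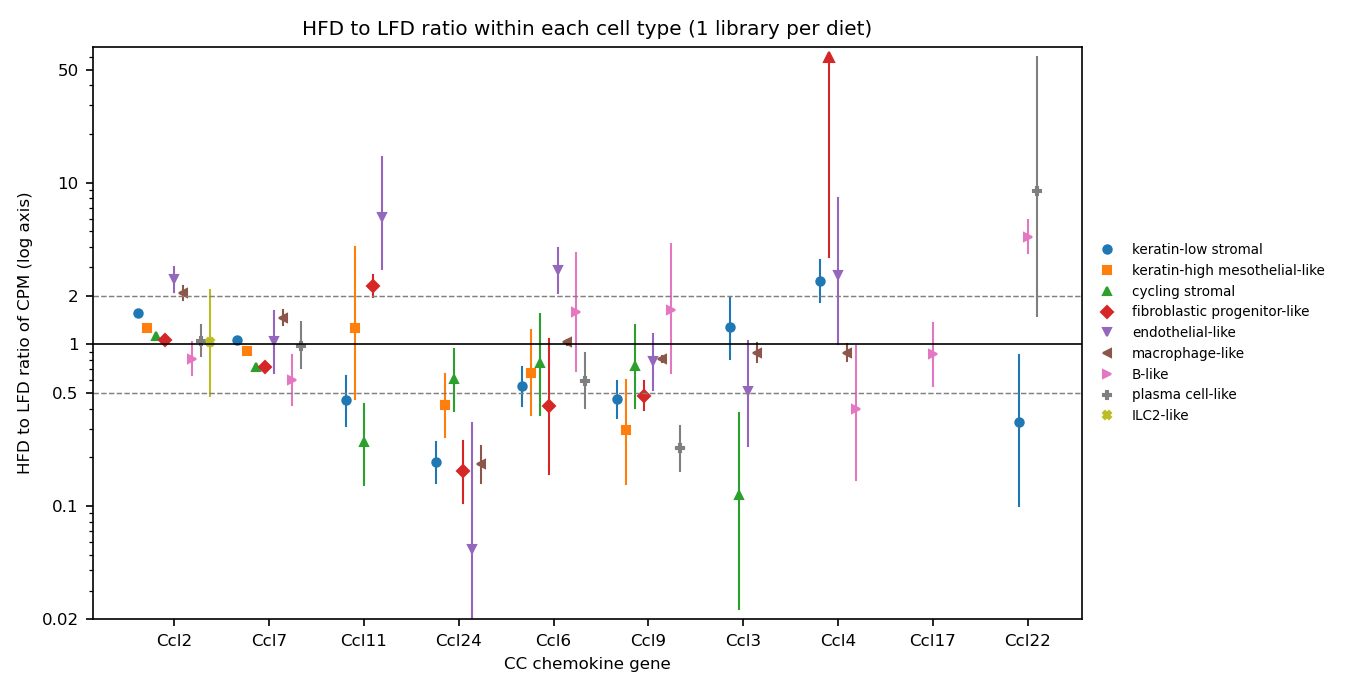
HFD to LFD ratio of CPM (y axis, log scale) for each gene (x axis) in each cell type with at least 100 cells on both diets (symbols), with exact 95% intervals for counting error. Dashed lines mark 2-fold, the red upward triangle of Ccl4 stands for LFD counts of 0, and intervals that run past the axis are cut at its ends. Ccl24 lies below 1 in every class and Ccl2 above 1 in all but B-like cells.

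Ccl2 (monocyte chemoattractant protein 1) and Ccl7 (monocyte chemoattractant protein 3) bind Ccr2, with Ccl7 using further receptors, and call monocytes out of the bone marrow and into tissue. Ccl2 was the most abundant CC chemokine of all 4 stromal classes on both diets. In keratin-low stromal cells it was at 1111 CPM on LFD (1102 to 1120) and 1729.8 CPM on HFD (1714 to 1746), a ratio of 1.56 (1.54 to 1.58). Thinned to 2000 UMIs per cell, 65.8% of LFD and 72.7% of HFD keratin-low stromal cells had a Ccl2 UMI, against 86.3% and 89.1% before thinning. In B-like cells, which are not expected to make Ccl2, 7.96% and 6.08% of thinned cells had a UMI, with medians of 4062 and 4226 UMIs before thinning.

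The size of the difference in Ccl2 followed the stromal class. Keratin-high mesothelial-like cells were at 965 and 1226 CPM (ratio 1.27, 1.24 to 1.30), cycling stromal cells at 985 and 1114 CPM (1.13, 1.11 to 1.16) and fibroblastic progenitor-like cells at 796 and 850.3 CPM (1.07, 1.02 to 1.11). All 4 stromal classes were thus higher on HFD, and none of them reached 2-fold. On LFD, the cycling and keratin-high classes had overlapping intervals, while the other steps in the order were beyond counting error.

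Along the keratin axis Ccl2 was highest in the middle. Grouped by the number of detected keratin markers, stromal cells with 0 markers had 991 CPM on LFD and 921 CPM on HFD. With 1 or 2 markers the levels were 1146 and 1669.5 CPM, with 3 or 4 markers 1088 and 1583 CPM, with 5 or 6 markers 1031 and 1376 CPM, and with 7 to 9 markers 909 and 984 CPM. At equal keratin marker numbers, a comparison added after the data had been seen, the HFD to LFD ratio was 0.930 (0.907 to 0.953) without keratin markers, 1.46 in cells with 1 to 4 markers, 1.34 with 5 or 6 and 1.08 (1.05 to 1.11) with 7 to 9. Fibroblastic progenitor-like cells, more frequent on HFD, had a median of 0 keratin markers. At equal numbers of fibroblastic markers the ratio was between 1.19 and 1.48 in the 4 groups from 0 to 7 markers, and at 8 to 10 markers the levels were 574 CPM on LFD and 545 CPM on HFD.

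Macrophage-like Ccl2 showed a larger ratio from a lower level. It was at 246 CPM on LFD (226 to 267) and 512 CPM on HFD (487 to 538), a ratio of 2.09 (1.89 to 2.30), and in thinned cells 23.5% (19.7 to 27.6) and 31.1% (26.9 to 35.6) had a UMI. The call rested on how cells with markers of 2 lineages were treated, as the ratio was 1.59 with them kept, and it was 1.67 under a stricter cell filter and 1.99 with median-ratio scaling. Stromal lineage markers in these cells summed to 897 CPM on LFD and 385 CPM on HFD. Cycling markers summed to 49.0 and 154 CPM, with 9 of 9 compared called higher. The part of either list in the result was not tested.

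Within macrophage-like cells Ccl2 went with Mrc1, the mannose receptor of resident tissue macrophages. Cells with a UMI of Mrc1 had 342 CPM of Ccl2 on LFD and 879 CPM on HFD, and cells without one 147 and 111 CPM. Ccl2 was thus higher on HFD in the 241 Mrc1-positive cells of each library and lower in the others. Cells with a UMI of Clec10a, a lectin of the same kind of cell, had 261 CPM on LFD and 852.5 CPM on HFD, against 240.1 and 256 CPM without it.

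Endothelial-like Ccl2 was at 56.4 CPM on LFD and 142 CPM on HFD, a ratio of 2.52 (2.12 to 3.00). The share of thinned cells with a UMI was 8.14% (5.85 to 10.96) and 9.78% (7.23 to 12.9), overlapping, and 17.4% of the HFD counts came from 1 cell. The list of genes induced by tissue dissociation, such as Fos and Jun, summed to 4418 CPM on LFD and 7329 CPM on HFD in the same cells, and its part in the result was not tested. With cells of 2 lineages kept the ratio was 1.83.

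Ccl7 was present in the same cells at lower levels and did not share the difference. In keratin-low stromal cells it was at 543 CPM on LFD (537 to 550) and 574 CPM on HFD (565 to 584), a ratio of 1.06 (1.04 to 1.08), and 49.0% and 47.6% of thinned cells had a UMI. Keratin-high mesothelial-like cells were at 385 and 349 CPM (ratio 0.904) and cycling stromal cells at 382 and 276 CPM (0.723, 0.694 to 0.753). Fibroblastic progenitor-like cells had the highest Ccl7 on LFD at 729 CPM and were at 529 CPM on HFD (0.725, 0.692 to 0.759). Ccl7 was therefore lower on HFD in 3 of the stromal classes and slightly higher in the largest one.

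As counts of the same cells, Ccl7 per Ccl2 is free of scaling between libraries. It was 0.489 on LFD and 0.332 on HFD in keratin-low stromal cells, 0.399 and 0.284 in keratin-high mesothelial-like cells, 0.388 and 0.248 in cycling stromal cells and 0.916 and 0.622 in fibroblastic progenitor-like cells. Macrophage-like cells were at 1.01 and 0.706. The interval of the HFD value lay below that of the LFD value in each of these 5 classes.

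Ccl7 was lower in cells with many keratin or cycling markers. By keratin marker number (0, 1 to 2, 3 to 4, 5 to 6, 7 to 9) it was at 539, 552, 470.1, 399 and 343 CPM on LFD and at 507, 571, 496, 398 and 259 CPM on HFD. Stromal cells with 5 or more of 10 cycling markers had 387 CPM on LFD and 279.6 CPM on HFD, against 559 and 497 CPM with none. Both orders were present in each library, and the lowest values were those of HFD cells with the most markers.

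In macrophage-like cells Ccl7 was at 247 CPM on LFD (227 to 268) and 362 CPM on HFD (341 to 384), a ratio of 1.46 (1.32 to 1.62). Ccl2 was detected more often in macrophage-like cells with Ccl7 than in those without. Among thinned cells with a Ccl7 UMI, 60.0% on LFD and 74.7% on HFD also had Ccl2, against 14.6% and 19.4% of cells without Ccl7. The correlation of their thinned counts over cells was 0.63 on LFD and 0.67 on HFD in macrophage-like cells and 0.28 and 0.36 in keratin-low stromal cells, over points that share a library and its free RNA.

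Like Ccl2, macrophage-like Ccl7 was concentrated in Mrc1-positive cells, at 411 CPM on LFD and 643 CPM on HFD against 78.8 and 53.6 CPM without Mrc1. In endothelial-like cells Ccl7 was at 14.1 and 14.7 CPM, within the range of the lymphoid classes, and did not go with Ccl2 there, as 1 of 15 LFD and 1 of 16 HFD thinned cells with Ccl7 had Ccl2, against 8.19% and 9.91% of those without. B-like cells were at 20.2 and 12.2 CPM, a ratio of 0.606, beside stromal markers of 796 and 475 CPM.

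**Figure D4:**
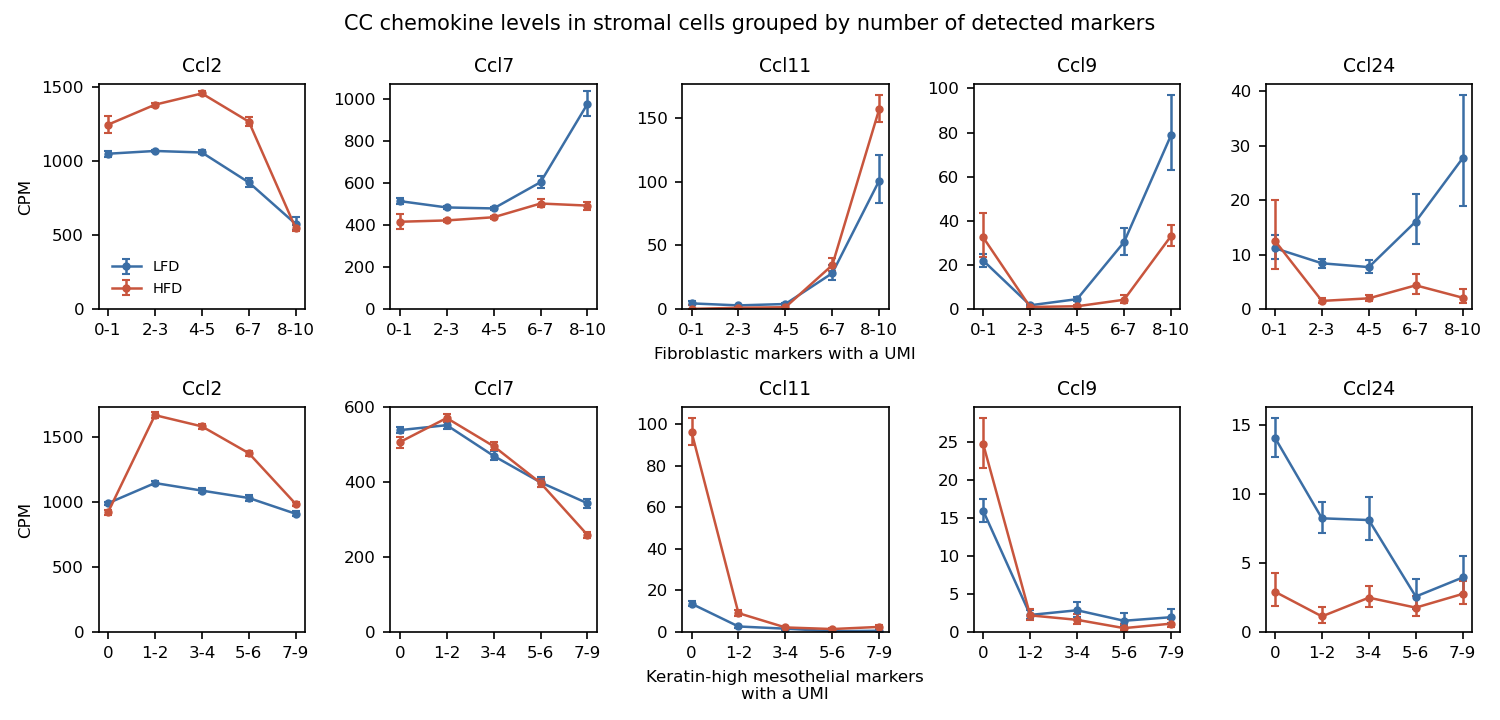
Level of Ccl2, Ccl7, Ccl11, Ccl9 and Ccl24 (y axes, CPM from 0) in stromal cells grouped by the number of fibroblastic markers (upper row) or keratin-high mesothelial markers (lower row) with a UMI, for LFD (blue) and HFD (red). Bars are exact 95% Poisson intervals. Ccl11 and Ccl9 climb at 6 or more fibroblastic markers, and Ccl24 on LFD lies above HFD in all groups but the first of the upper row.

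Ccl11 (eotaxin 1) and Ccl24 (eotaxin 2) bind Ccr3 and attract eosinophils, cells that help to keep lean fat in a type 2 immune state. Here they differed in their main source. Their diet ratios had opposite signs in fibroblastic progenitor-like and endothelial-like cells, and both were lower on HFD in keratin-low and cycling stromal cells. Ccl11 belonged to the fibroblastic end of the stroma, and Ccl24 to a few macrophage-like cells and, thinly, to all stromal classes.

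In fibroblastic progenitor-like cells Ccl11 was at 49.7 CPM on LFD (43.1 to 57.1) and 114 CPM on HFD (107 to 121), a ratio of 2.29 (1.97 to 2.67). UMIs were found in 72 of 314 LFD cells and 277 of 697 HFD cells, and after thinning in 9.27% (6.29 to 13.0) and 20.3% (17.4 to 23.5) of cells. In thinned B-like cells, with fewer UMIs per cell, no cell of either library had one. The fibroblastic class held 41.5% of all typed Ccl11 UMIs on LFD and 88.9% on HFD, as it was also larger on HFD.

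Ccl11 was steeply higher in cells with many fibroblastic markers in each library. Cells with 2 or 3 such markers had 2.75 CPM on LFD and 0.858 CPM on HFD, those with 4 or 5 had 3.84 and 1.28 CPM, those with 6 or 7 had 28.1 and 34.5 CPM, and those with 8 to 10 had 101 (83.3 to 121) and 157 CPM (147 to 168). At 6 or 7 markers the HFD to LFD ratio was 1.23 (0.948 to 1.59), and below that it was under 1. The top group held 95 LFD and 448 HFD cells, so the HFD class lay further toward the fibroblastic end, and with a stricter marker minimum the class ratio was 1.72. Grouped by keratin markers instead, all stromal cells together had Ccl11 ratios above 1. They were 7.15 (6.32 to 8.09) with none, 3.56 with 1 or 2 and 1.41 (0.782 to 2.62) with 3 or 4. With 5 or 6 the ratio was 5.75 and with 7 to 9 it was 5.13, from 2 and 4 LFD counts. The direction of stromal Ccl11 thus depended on the markers used for grouping.

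The other stromal classes had little Ccl11. Keratin-low stromal cells were at 3.38 CPM on LFD and 1.53 CPM on HFD, a ratio of 0.452 (0.313 to 0.641) that turned to 2.58 when cells were weighted equally. Cycling stromal cells were at 4.95 and 1.23 CPM, a ratio of 0.248 (0.135 to 0.427), with 43.8% of the HFD counts in 1 cell. Endothelial-like cells were at 2.40 CPM (9 counts) and 14.7 CPM (38 counts in 20 cells), a ratio of 6.14 (2.92 to 14.4). In the same endothelial-like cells the mural cell markers summed to 45.0 CPM on LFD and 263 CPM on HFD, with 7 of 7 compared called higher, 1 of the 8 listed at 0 on LFD, and a ratio of the sums of 5.85, whose part in the result was not tested. In macrophage-like cells Ccl11 had 0 counts on LFD and 4 on HFD.

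Of thinned HFD fibroblastic progenitor-like cells with Ccl7, 19.4% had Ccl11, against 20.9% of those without. On LFD 11.9% (7.54 to 17.7) against 5.84% (2.55 to 11.2) did, with overlapping intervals.

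Ccl24 was lower on HFD in every class in which it could be compared. In macrophage-like cells it was at 134 CPM on LFD (120 to 150) and 24.3 CPM on HFD (19.1 to 30.4), a ratio of 0.181 (0.139 to 0.234). The LFD counts were concentrated, with 307 counts in 30 of 516 cells and 20.5% of them in 1 cell, while 75 HFD counts lay in 41 of 481 cells. The share of thinned cells with a UMI was 5.0% (3.20 to 7.41) and 3.11% (1.71 to 5.16), with overlapping intervals, so the difference lay in counts per positive cell more than in their number. In the same cells 3 of 7 monocyte markers and 3 of 5 neutrophil markers compared were called lower and none higher, with sums of 18038 and 17028 CPM and of 175 and 66.4 CPM, and their part in the result was not tested.

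Within LFD macrophage-like cells the order by Mrc1 was the reverse of that of Ccl2. Cells with Mrc1 had 80.3 CPM of Ccl24 on LFD and cells without it 189.5 CPM, and cells with Clec10a had 38.6 CPM against 169.8 CPM. The 40 LFD cells with a UMI of Ly6c2, a monocyte gene, were at 527 CPM, against 98.7 CPM in the others. On HFD these splits gave values between 21.7 and 36.9 CPM.

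Among stromal cells, fibroblastic progenitor-like cells had the most Ccl24 on LFD, 20.3 CPM (83 counts) against 3.34 CPM on HFD (30 counts), a ratio of 0.164 (0.104 to 0.252). Keratin-low stromal cells were at 11.1 and 2.07 CPM (0.187, 0.139 to 0.247) and keratin-high mesothelial-like cells at 3.79 and 1.60 CPM (0.421). Cycling stromal cells were at 4.04 and 2.46 CPM, a ratio of 0.609, which was 0.199 when the highest cell of each library was left out because 68.8% of the HFD counts lay in 1 cell. Endothelial-like cells had 27 counts on LFD, 70.4% of them in 1 cell, and 1 on HFD (ratio 0.0539, 0.00132 to 0.327), and without the highest cell of each library only an upper bound of 0.547 was left for the ratio.

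Stromal Ccl24 was not in the proportion to Ccl6 that macrophage-like cells had. Ccl24 per Ccl6 was 0.0466 in LFD macrophage-like cells (0.0414 to 0.0522) but 2.24 in LFD keratin-low stromal cells and 7.55 in LFD fibroblastic progenitor-like cells (4.01 to 15.7). On HFD it was 0.00819, 0.761 and 3.00. Macrophage markers in keratin-low stromal cells summed to 68.6 CPM on LFD and 39.3 CPM on HFD, against 24573 and 24835 CPM in macrophage-like cells.

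At equal numbers of keratin markers, the Ccl24 ratio in stromal cells was 0.206 with none, 0.135 with 1 or 2, 0.305 with 3 or 4, 0.684 with 5 or 6 and 0.697 with 7 to 9. The intervals of the last 2 groups included 1. The difference was therefore clearest in stromal cells with few keratins.

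Ccl6 and Ccl9, which bind Ccr1, are chemokines of rodent myeloid cells with no direct human counterpart. Both marked nearly every macrophage-like cell. Ccl6 was at 2881 CPM on LFD (2811 to 2951) and 2964 CPM on HFD (2904 to 3026), a ratio of 1.03 (0.997 to 1.06), and 90.4% and 90.0% of thinned cells had a UMI. Thinned B-like cells had one in 0.648% and 0.634%. It was the highest of the 10 genes in this class on both diets.

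Ccl9 was at 1945 CPM on LFD (1888 to 2003) and 1575 CPM on HFD (1531 to 1620), a ratio of 0.810 (0.777 to 0.844), and 86.7% and 84.0% of thinned cells had a UMI. Ccl9 per Ccl6 in macrophage-like cells was 0.675 (0.650 to 0.702) on LFD and 0.531 (0.513 to 0.550) on HFD. Ccl9 was nearly the same with and without Mrc1, at 1946 and 1944 CPM on LFD and 1492 and 1666 CPM on HFD, and Ccl6 was higher with Mrc1, at 3269 against 2482 CPM and 3330.1 against 2564 CPM.

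Neutrophil-like cells separated the pair. Ccl6 was at 573 CPM on LFD (108 counts) and 460.1 CPM on HFD (23 counts) in these cells, while Ccl9 had 1 and 2 counts. Dendritic cell-like cells had 0 counts of Ccl6 on LFD and 27 counts (44.5 CPM) on HFD, 37.0% of the latter in 1 cell.

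Outside myeloid cells, Ccl9 had a stromal site of its own. Fibroblastic progenitor-like cells were at 45.6 CPM on LFD (39.2 to 52.6, in 55 of 314 cells) and 21.9 CPM on HFD (19.0 to 25.2, in 72 of 697 cells), a ratio of 0.481 (0.392 to 0.591). The macrophage markers summed to 78.1 and 31.4 CPM in this class, a ratio of 0.402 with 1 of 4 compared called lower, and their part in the lower Ccl9 and Ccl24 there was not tested. Ccl6 had only 11 and 10 counts there, so Ccl9 per Ccl6 was 16.9 (9.23 to 34.5) and 19.7 (10.5 to 41.7), far from the macrophage-like ratio. Like Ccl11, Ccl9 was highest at the fibroblastic end, at 78.7 CPM on LFD and 33.0 CPM on HFD with 8 to 10 markers, against 1.63 and 0.858 CPM with 2 or 3. Cells with 0 or 1 such marker, of which the 181 HFD cells were shallow with a median of 2968 UMIs, were at 21.9 and 32.4 CPM. With cells of 2 lineages kept the class ratio was 0.587.

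Stromal Ccl9 was lower on HFD at equal fibroblastic marker numbers from 2 to 7, with ratios of 0.527 at 2 or 3 markers, 0.269 at 4 or 5 and 0.137 (0.0820 to 0.219) at 6 or 7. Ccl11 was lower too at 2 or 3 (0.312) and at 4 or 5 markers (0.334), but not at 6 or 7 (1.23, 0.948 to 1.59). With 0 or 1 marker the Ccl9 ratio was 1.48 (1.04 to 2.06). Grouped by keratin markers instead, the Ccl9 ratio was 1.55 (1.31 to 1.83) with none and 0.975 (0.616 to 1.52) with 1 or 2. It was 0.554 with 3 or 4, 0.326 with 5 or 6 and 0.555 (0.266 to 1.16) with 7 to 9. Keratin-low stromal cells as a class were at 6.24 and 2.87 CPM of Ccl9 (0.460) and keratin-high mesothelial-like cells at 1.86 and 0.546 CPM (0.294). Plasma cell-like cells were at 16.7 and 3.81 CPM (0.228), where 59.5% of the LFD counts lay in 1 cell. Under the stricter cell filter the keratin-low ratio was 0.994 and the plasma cell-like ratio 1.38, and with cells of 2 lineages kept the keratin-low and keratin-high ratios were 0.632 and 0.790.

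Ccl6 was far lower in stromal and endothelial-like cells than in macrophage-like or neutrophil-like cells. Keratin-low stromal cells were at 4.93 and 2.72 CPM (ratio 0.551) and endothelial-like cells at 16.2 and 46.5 CPM (2.86, 2.09 to 3.96), the latter with 43.3% of the HFD counts in 1 cell. The endothelial-like ratio was 0.741 under the stricter cell filter. In fibroblastic progenitor-like cells the ratio was 0.413 (0.157 to 1.07), its interval included 1, and it was 2.58 with cells of 2 lineages kept.

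Ccl3 and Ccl4 (macrophage inflammatory proteins 1 alpha and 1 beta) are made quickly by activated myeloid and lymphoid cells. Neutrophil-like cells had by far the highest levels. Ccl3 was at 1003 CPM on LFD (865 to 1157) and 3980.5 CPM on HFD (3447 to 4574), and Ccl4 at 658 CPM (548 to 785) and 2500.3 CPM (2081 to 2979). UMIs of Ccl3 were found in 58 of 150 LFD and 30 of 47 HFD neutrophil-like cells, at medians of 1234.5 and 1016 UMIs per cell.

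No ratio was formed for these cells because fewer than 100 were seen on HFD, and 30.7% of the HFD Ccl3 counts lay in 1 cell. Ccl4 per Ccl3, which needs no scaling, was 0.656 on LFD and 0.628 on HFD in neutrophil-like cells. In macrophage-like cells it was 1.17 on both diets, and in dendritic cell-like cells 42.0 and 36.3, where Ccl3 had 2 and 3 counts. The intervals of these 3 types did not overlap each other, and those of the diets did within each type.

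In macrophage-like cells Ccl3 was at 186 CPM on LFD (169 to 205) and 165 CPM on HFD (151 to 180.5), a ratio of 0.889 (0.780 to 1.01). Ccl4 was at 218 CPM on LFD (199 to 238) and 194 CPM on HFD (179 to 210.1), which made the ratio 0.889 (0.788 to 1.00). Both intervals reached 1. The Ccl4 ratio was 0.502 under the stricter cell filter and 1.21 with cells weighted equally. Among thinned macrophage-like cells, 19.3% and 18.7% had Ccl3, and 13.5% and 16.7% had Ccl4.

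Ccl3 was detected more often in macrophage-like cells with Ccl4 than in those without. Of thinned cells with Ccl4, 58.1% on LFD (36 of 62) and 49.3% on HFD (37 of 75) had Ccl3, against 13.3% and 12.5% of the others. Most cells with Ccl3 had no Ccl4 UMI, as both were seen in 36 of 89 such cells on LFD and 37 of 84 on HFD. Mrc1-positive cells had more Ccl4, at 362 against 70.0 CPM on LFD and 292 against 86.1 CPM on HFD. Dendritic cell-like cells had 174 and 179.7 CPM of Ccl4, in 16 of 64 and 21 of 74 cells. In NK-like cells, 6 on LFD and 7 on HFD, Ccl3 had 2 and 5 counts and Ccl4 3 and 7.

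Calls of Ccl3 and Ccl4 in other types rested on few cells. Ccl4 in keratin-low stromal cells was at 1.66 CPM on LFD and 4.09 CPM on HFD (2.46, 1.84 to 3.31), but its 107 HFD counts lay in 10 of 1674 cells and 49.5% of them in 1. That ratio was 0.577 without the top 10% of cells by UMIs, 1.2 with cells weighted equally and 1.70 without the highest cell of each library. In fibroblastic progenitor-like cells Ccl4 had 0 counts on LFD and 30 on HFD in 6 cells, 4.55-fold higher against a floor of 3 counts over the class, with an exact lower limit of 3.47 for the ratio. Ccl4 in endothelial-like cells (7 and 13 counts, ratio 2.70) and in B-like cells (22 and 7 counts, ratio 0.401) turned to 0.582 and 1.08 when the highest cell of each library was left out, an alternative added after the data had been seen. Ccl3 in cycling stromal cells was at 32 counts on LFD, 90.6% of them in 1 cell, and 3 on HFD (ratio 0.118), which became 0.838 in the same way.

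Ccl17 (thymus and activation regulated chemokine) and Ccl22 (macrophage-derived chemokine) bind Ccr4 on type 2 and regulatory lymphocytes. On LFD both were highest in dendritic cell-like cells. On HFD this held for Ccl17, while the intervals of dendritic cell-like and B-like Ccl22 overlapped. Dendritic cell-like Ccl17 was at 280.2 CPM on LFD (235 to 332, 135 counts in 13 of 64 cells) and 104 CPM on HFD (79.8 to 133, 63 counts in 5 of 74 cells). Ccl22 was at 209.6 CPM on LFD (171 to 255, 101 counts in 12 cells) and 92.3 CPM on HFD (69.7 to 120, 56 counts in 8 cells). In each of these 4 values at least 30.7% of the counts came from 1 cell, and no ratio was formed.

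The 2 genes went with different markers among LFD dendritic cell-like cells, although 2 of 9 thinned cells with Ccl22 also had Ccl17, against 14.5% of those without. Cells with a UMI of Fscn1, a gene of mature migratory dendritic cells, numbered 9 and held 89 of the 101 Ccl22 counts (1678 CPM against 28.0 CPM in the others). Ccl17 was instead in cells with Clec9a, a gene of type 1 conventional dendritic cells, at 494 CPM in 28 cells against 76.9 CPM. On HFD both lay in the 8 cells with Fscn1, Ccl17 at 1120.1 CPM (52 counts) and Ccl22 at 1099 CPM (51 counts), while cells with Clec9a were at 19.5 and 4.33 CPM. With 61.9% of HFD and 44.4% of LFD Ccl17 counts in 1 cell, this change of place rests on very few cells.

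**Figure D5:**
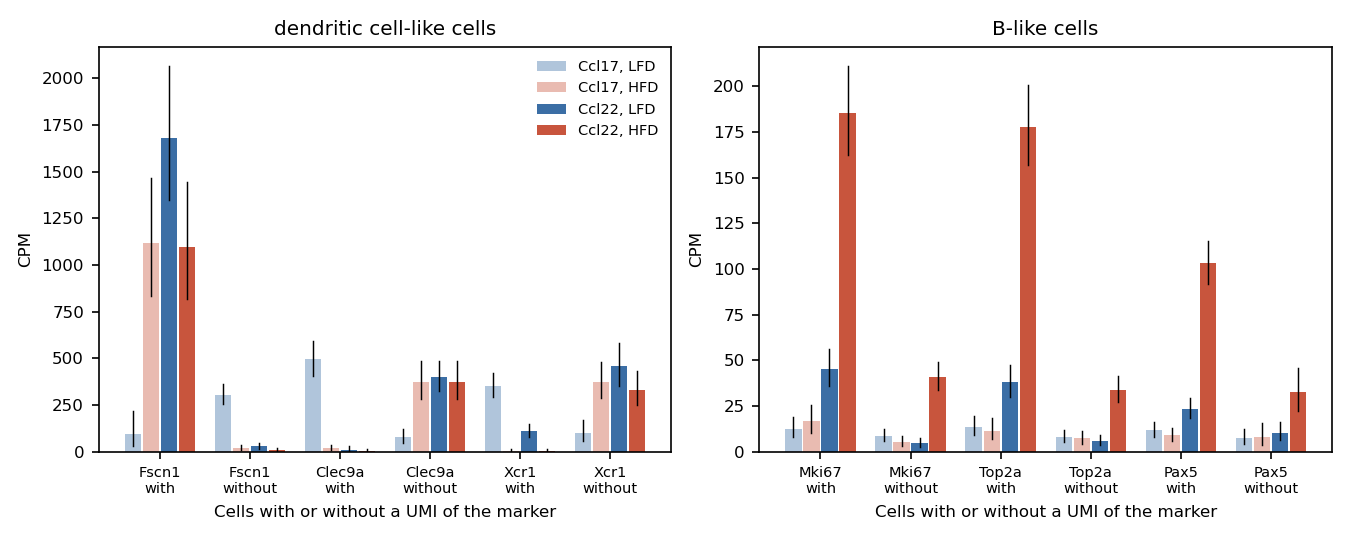
Level of Ccl17 (pale) and Ccl22 (dark) in CPM (y axes from 0) in dendritic cell-like (left) and B-like cells (right) with or without a UMI of the marker on the x axis, for LFD (blue) and HFD (red), with exact 95% Poisson intervals. Ccl22 is highest in dendritic cell-like cells with Fscn1 on both diets and, among B-like cells, is higher in those with Mki67 or Top2a than in those without.

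B-like Ccl22 was at 18.4 CPM on LFD (14.9 to 22.5, 95 counts) and 85.6 CPM on HFD (76.9 to 95.1, 350 counts), a ratio of 4.64 (3.69 to 5.89), the highest ratio among pairs with at least 50 counts in both libraries. UMIs were found in 21 of 1119 LFD cells and 58 of 811 HFD cells, and after thinning in 1.30% (0.710 to 2.16) and 4.56% (3.22 to 6.26). In fibroblastic progenitor-like cells, which are not expected to make it, 1 cell of each library had a UMI, at medians of 11578 and 11758 UMIs per cell. The highest cell held 22.1% of the LFD and 12.6% of the HFD counts.

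Among B-like cells, Ccl22 was higher in cells with cell cycle genes than in cells without. Cells with a UMI of Mki67 were at 45.2 CPM on LFD (35.8 to 56.4) and 186 CPM on HFD (163 to 211), against 4.70 CPM (2.68 to 7.63) and 40.8 CPM (33.6 to 48.9) in cells without. Cells with Top2a were at 38.1 and 178 CPM, against 6.01 and 33.7 CPM. The cells with Mki67 were deeper, with a median of 6598.5 and 7914.5 UMIs against 3715 and 3989, although CPM is scaled by depth. Ccl22 was higher on HFD with and without these genes.

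The HFD difference was also present with and without B cell markers that split the class. Cells with Pax5, a B cell identity factor, were at 23.5 CPM on LFD and 103 CPM on HFD, and cells without a Pax5 UMI at 10.5 and 32.6 CPM. Cells with Ighd, a mark of naive B cells, were at 15.6 and 80.8 CPM, and those without at 19.9 and 88.3 CPM. The highest level of any such group was in the 21 HFD cells without a UMI of Ms4a1, a B cell surface marker, which held 65 of the 350 counts at 736 CPM (568 to 938), against 71.3 CPM in HFD cells with it and no count in the 18 LFD cells without it (up to 71.4 CPM).

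Ccl17 in B-like cells did not share the difference. It was at 10.1 CPM on LFD (7.54 to 13.2, 52 counts) and 8.81 CPM on HFD (6.17 to 12.2, 36 counts), a ratio of 0.873 (0.554 to 1.36). Only 1 thinned B-like cell of each library had both genes, which was 7.14% and 2.78% of those with Ccl22, against 1.5% and 0.797% with Ccl17 among those without. Plasma cell-like cells had 1 count of Ccl22 on LFD and 37 on HFD (ratio 8.84, 1.49 to 359), of which 89.2% lay in 1 cell, so that without the highest cell of each library no ratio was left. Keratin-low stromal Ccl22 (30 and 5 counts, ratio 0.330) was 0.952 with cells of 2 lineages kept.

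The receptors of these chemokines were read in the same cells. In macrophage-like cells no receptor compared was called. Ccr2, the receptor of Ccl2 and Ccl7, was at 268 CPM on LFD and 194 CPM on HFD (ratio 0.723, 0.645 to 0.810) and Ccr1 at 243 and 204 CPM (0.839, 0.748 to 0.942). Neutrophil-like cells had Ccr1 at 573 and 1000.1 CPM.

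In ILC2-like cells 2 of 4 receptors were called higher on HFD and none lower, in a class where 8.05% of all genes compared were called higher. Ccr2 was at 105 CPM on LFD and 253 CPM on HFD (2.42, 1.78 to 3.32) and Ccr4, the receptor of Ccl17 and Ccl22, at 15.6 CPM (10 counts) and 61.2 CPM (28 counts), a ratio of 3.91 (1.85 to 9.03). Macrophage markers in the same cells summed to 12.5 and 98.3 CPM, with 1 of 1 compared called higher, and their part in the result was not tested. In B-like cells no receptor compared was called lower, and calls of higher included Ccr1 (19.99 and 43.5 CPM, 2.18) and Ccr9 (2.33 and 8.07 CPM, 3.47). Ccr6 and Ccr7, the most abundant receptors of B-like cells, were at 51.6 and 84.6 CPM and at 121 and 158 CPM. Ccr3, the eotaxin receptor, did not reach 20 counts in any type, and no class of eosinophils was defined here.

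In keratin-low stromal cells all receptors were under 2 CPM, and of 5 compared only Ccr7 was called, lower, where 5.42% of all genes were called lower. Endothelial-like cells had 1 higher call of 2 (Ccr1), where 5.83% of all genes were called higher, and plasma cell-like cells 2 lower calls of 6 (Ccr2 and Ccr7), where 2.65% were called lower, all at 21 counts or fewer per library. In dendritic cell-like cells Ccr7, which guides them to lymph nodes, was at 195 and 176 CPM.

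Atypical receptors bind chemokines without signalling to migration. Fibroblastic progenitor-like cells had 2 higher calls of 4, both scavenging receptors, in a class where 5.22% of all genes compared were called higher, with Ackr2 at 5 and 58 counts (5.27, 2.13 to 16.8) and Ackr4 at 0 and 29 counts, and no lower call. The fibroblastic markers that define this class summed to 2877 and 6234 CPM in it, with 8 of 10 called higher, and their part in the result was not tested. Ccrl2 was the most abundant in stromal cells, at 11.4 and 18.5 CPM in keratin-low stromal cells (1.62, 1.43 to 1.83). It was the 1 of 2 called higher in endothelial-like cells, at 6.65 and 23.2 CPM (3.49), where 5.83% of all genes were. In ILC2-like cells it was the only one compared and was called higher (10 and 16 counts), where 8.05% of all genes were. Of 3 compared in keratin-low stromal cells, Ackr1 and Ackr4 were called lower (0.442 and 0.417, the latter at 19 and 4 counts), where 5.42% of all genes were. Of 2 compared in keratin-high mesothelial-like cells, Ackr1 was called higher (4 and 22 counts, 2.98), where 3.26% of all genes were. In neutrophil-like cells Ccrl2 was at 679.6 CPM on LFD and 860.1 CPM on HFD.

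Of 10 further CC chemokines, Ccl8, a ligand related to Ccl2 and Ccl7, was at 174 and 298 CPM in macrophage-like cells (1.71, 1.52 to 1.93). In stromal cells it was called higher in fibroblastic progenitor-like cells (4.90 and 10.4 CPM, 2.11) and lower in the keratin-low (0.264), keratin-high (0.230) and cycling classes (0.241). Ccl20, the ligand of Ccr6, was at 1.16 and 13.5 CPM in cycling stromal cells (11.6, 7.23 to 19.8). Ccl5 was at 340 and 785 CPM in T-like cells and was called lower in keratin-low (0.455) and cycling stromal cells (0.0829). Ccl1, a ligand of Ccr8, was at 35.9 and 93.9 CPM in ILC2-like cells (2.61). Of 6 of the further chemokines compared, 0 were called higher and 2 lower in keratin-low stromal cells (2.32% and 5.42% of all genes). In keratin-high cells 0 and 1 of 6 were (3.26% and 1.80%), and in cycling stromal cells 2 and 2 of 6 (2.78% and 3.04%). Fibroblastic progenitor-like cells had 1 and 0 of 4 (5.22% and 2.25%) and endothelial-like cells 2 and 0 of 3 (5.83% and 2.73%).

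Ccl19, Ccl21a and Ccl27a are read over several near-identical gene copies, so their counts are uncertain. Ccl19 was at 43.8 and 30.6 CPM in fibroblastic progenitor-like cells (0.698) and Ccl21a had 0 LFD and 75 HFD counts in endothelial-like cells. Ccl25 was not called in any of the 8 types compared, with ratios from 0.880 to 1.71.

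The signals that are known to induce these chemokines were measured in the same cells. Ccl11, Ccl24, Ccl17 and Ccl22 respond to interleukin 4 and interleukin 13 through Il4ra and Stat6, and Ccl2 and Ccl7 to tumour necrosis factor and interleukin 1 through NF-kB. Il13 was at 667 CPM on LFD and 356 CPM on HFD in ILC2-like cells (0.534, 0.443 to 0.641), and Il4 did not reach 20 counts in any type. Il4ra was lower on HFD in all 4 stromal classes, with ratios of 0.574, 0.450, 0.513 and 0.451 in the keratin-low, keratin-high, cycling and fibroblastic classes, and 2 of these passed 2-fold.

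Stat6 ratios lay between 1.08 and 1.43 in those classes, and Il13ra1 ratios between 0.933 and 1.05. Nfkb1, which encodes an NF-kB subunit, was higher on HFD in the stromal classes at 1.97, 1.62, 1.47 and 1.80, short of 2-fold. Il1r1 was higher in 3 of them (1.43, 1.34 and 1.31) and at 0.896 in fibroblastic progenitor-like cells. Il1b was at 618 and 280.1 CPM in macrophage-like cells (0.453) and Tnf at 133 and 151 CPM (1.14). How these levels bear on the chemokines was not tested.

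The genes whose levels over 23 points (cell type by library, at least 50 cells each) were most like each chemokine's are given as a description, with Pearson r of log2(CPM + 1) and points that share libraries. For Ccl2 they were Timp2 (0.97), Pcdh7 (0.96) and Axl (0.96), and for Ccl7 Mmp19 (0.98) and Igf2bp2 (0.97). For Ccl11 they were Postn (0.94), which encodes the matrix protein periostin, Aoc3 (0.93) and Carmn (0.92). Ccl24 had the weakest likeness, to Lrrc27 (0.83), Abcc3 (0.82) and Pla2g15 (0.82).

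For Ccl6 the list was Cd300lb, Igsf6 and C5ar1 (0.93, 0.93 and 0.92), and for Ccl9 Cmklr1, Ms4a8a and Tfec (0.93, 0.90 and 0.90). Ccl3 was most like Clec5a, Nampt and Sirpb1c (0.95 each), and Ccl4 like Gm34084, C130050O18Rik and Mpeg1 (0.92, 0.92 and 0.91). Ccl17 was most like its neighbour Ccl22 (0.89), then Dbnl and Uvrag (0.88 and 0.87). With log2(CPM + 10) none of these was kept, and the list was Ffar4, Tlr12 and Kmo. The Ccl6 list was replaced in the same way by Hk3, Clec4a2 and Fcgr3. Ccl22 was most like Kynu (0.95), Trim7 and Slc38a9 (0.90 each).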

How the data were processed

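Single-cell RNA sequencing of live eYFP+ cells sorted from gWAT was available as 1 library for LFD and 1 for HFD. The deposited matrices hold UMI counts per gene and cell, which the authors made with Cell Ranger 4.0.0 from 10x 3′ v3 reads mapped to mm10, with no normalization. The submitters' processing notes also name STAR, Seurat 4.1.0 and bcl2fastq 2.17.1.14. Library totals were 114311020 UMIs for LFD and 119498750 for HFD.

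Cells with 500 to 40000 UMIs, under 12.5% mitochondrial counts and at least 100 genes were kept. Each cell received the type of which it expressed the most markers, with at least 3, and stromal cells were divided at 5 of 9 keratin, 6 of 10 fibroblastic and 5 of 10 cycling markers. The scoring rule, unlike the marker lists, was settled after the cells had been seen. Cells with markers of 2 lineages (4.86% LFD, 5.31% HFD), which may be doublets, were left out, and no doublet caller was run.

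Levels were CPM of summed counts with exact Poisson intervals, shares had exact Clopper-Pearson intervals after thinning cells to 2000 UMIs, and ratios had exact conditional binomial intervals. All intervals and the floor of 3 counts cover counting error only. A ratio needed at least 100 cells per library and 20 counts, and past 2-fold was a call. Neither the pooled mice nor technical batches could be told apart from diet. The text names all 10 chemokines, the listed receptors, atypical receptors, other CC chemokines and inducing signals, and the 3 genes most like each chemokine, among genes with at least 100 counts, apart from a few items that are not reported here. Members and lists were chosen with earlier results of these data known. Alternatives changed the scaling, minimum counts, cell filter, marker minimum, doublet removal, and, added after the data had been seen, the highest cell, shared cell names and the traced free RNA. Python 3.11.15, numpy 2.4.6, scipy 1.17.1 and pandas 2.3.3 were used, and the ratio step was tested on simulated data. Positions came from GENCODE M21 and promoters from RefSeq GRCm38.p6.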

Additional observations from a re-analysis of the deposited data

Results flagged for a closer look

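Among the chemokines, 3 were past 2-fold in opposite directions in different cell types, with intervals that left out a ratio of 1. The share of all genes that meet the same rule was not counted, so whether this number is unusual cannot be told. The difference between cell types was not tested, since each diet had 1 library.

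Ccl4 was 4.55-fold higher on HFD in fibroblastic progenitor-like cells against a floor of 3 counts (exact lower limit 3.47), and its HFD to LFD ratio was 2.70 in endothelial-like, 2.46 in keratin-low stromal and 0.401 in B-like cells. In each of these types 49.5% to 84.6% of the counts in the higher library lay in 1 cell. Ccl11 had a ratio of 6.14 in endothelial-like and 2.29 in fibroblastic progenitor-like cells, against 0.248 in cycling and 0.452 in keratin-low stromal cells. The keratin-low ratio was 2.58 with cells weighted equally and 0.564 to 0.636 under 3 other settings, and the fibroblastic ratio was 1.72 with stricter markers. In the endothelial-like cells mural cell markers summed to 45.0 CPM on LFD and 263 CPM on HFD (7 of 7 compared called higher), and their part in the Ccl11 ratio was not tested. Ccl22 had a ratio of 8.84 in plasma cell-like and 4.64 in B-like cells, against 0.330 in keratin-low stromal cells. Of the plasma cell-like HFD counts 89.2% lay in 1 cell, and the keratin-low ratio rested on 30 and 5 counts and was 0.952 with cells of 2 lineages kept.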

How the results depend on the processing

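No paired analysis was possible because each diet had 1 library, so no replicate could be left out either. Of 57 ratios, 55 kept their side of 2-fold under median-ratio scaling, 49 with cells weighted equally, 44 with cells of 2 lineages kept and 57 without cell names found in both libraries. Of those still available, 49 of 53 did so without the top 10% of cells by UMIs, 51 of 54 with a stricter marker minimum, 48 of 56 without the highest cell of each library and 30 of 38 with at least 2000 UMIs and under 5% mitochondrial counts. This strict filter left 2100 LFD and 2864 HFD typed cells.

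The 10 higher calls became 6 at a minimum of 50 counts, 20 at 1 count and 6 under the strict filter, and the 15 lower calls 9, 21 and 9. In keratin-low stromal cells the Ccl2 ratio was 1.48 with median-ratio scaling, 1.51 per cell, 1.65 under the strict filter, 1.54 without the top 10% and 1.53 with stricter markers. That of Ccl7 was 1.01, 1.02, 1.14, 1.02 and 1.03 in the same order. In macrophage-like cells Ccl6 was 0.983, 1.06, 0.887 and 1.07 under the first 4 of these, Ccl9 0.774 with median-ratio scaling, Ccl3 0.738 and Ccl4 0.502 under the strict filter, Ccl4 1.21 per cell and Ccl24 0.241 with stricter markers. Ccl11 in fibroblastic progenitor-like cells was 2.89 under the strict filter and 1.72 with stricter markers.

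Among ratios past 2-fold, directions turned for Ccl11 in keratin-low stromal cells (2.58 per cell), Ccl4 in B-like (1.08) and endothelial-like cells (0.582, both without the highest cell) and in keratin-low stromal cells (0.577 without the top 10%), Ccl6 in endothelial-like cells (0.741, strict filter) and fibroblastic progenitor-like cells (2.58, mixed cells kept), and Ccl9 in plasma cell-like cells (1.38, strict filter). Ratios under 2-fold that crossed 1 include those of Ccl4 and Ccl6 in macrophage-like cells, given above. The cause was not tested. With another pseudocount, 5 of 10 lists of most similar genes kept at least 2 of their 3 genes. Of 60 levels 27 and of 40 shares 4 moved by less than their counting interval.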
